A study of Petromyzon marinus with 21 samples.

Results

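The transcripts described here are the 3 target probes of a sea lamprey (Petromyzon marinus) panel whose annotation in the deposited count table names MAD2L1-binding protein (comp280581), protein phosphatase 1D (comp267762, spelled phosphotase there) or a trinucleotide repeat-containing gene (comp292626). They are 3 of 43 target probes, of which 19 carry an annotation and 24 do not. The table adds a short remark to each name: cell proliferation for the first, proto-oncogene for the second and chromatin binding for the third. Annotations of the target probes were searched with a fixed word list for proteins of the cell cycle, the DNA damage response or chromatin. The list returned these 3 probes and 0 others. It held no word for meiosis, so the SYCP1 and HFM1 probes among the targets were not returned. The reference probes were not searched.

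In human cells MAD2L1-binding protein, also called p31comet, binds the spindle checkpoint protein MAD2 and helps to switch the checkpoint off once the chromosomes are attached to the spindle. Human protein phosphatase 1D (PPM1D, or WIP1) is induced by p53 and removes phosphate groups from p53 and from kinases of the DNA damage response, which ends the arrest that damage causes. Several unrelated human genes carry the name trinucleotide repeat-containing, for a repeat in their sequence. The table does not say which of them comp292626 resembles, so no further role is given for it. In animals with external fertilization the first cleavages run largely on maternal RNA, and transcription from the embryo's own genome begins later. Lamprey embryos in addition remove part of the germline genome from their somatic cells early in development; the labels do not say whether these transcripts were chosen for that reason.

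RNA came from whole embryos and from adult testes. The embryos were of 6 stages named for their day of development, D1 and D2, D2.5 and D3, and D4 and D5, with 3 biological samples per stage. The 3 testes lanes are technical replicates and count as 1 biological sample. Embryos were kept at 18 °C in dilute Holtfreter's solution (10%), a salt solution for aquatic embryos. The labels name no genotype, treatment or number of embryos per sample. The NanoString nCounter counts barcoded probes hybridised to RNA, without amplification. In whole embryos and testes, fewer cells of a type and less RNA per cell cannot be told apart.

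The target counts of a lane summed to 504 to 15415 in embryos and to 450972 to 473907 in testes. Column names show 3 instrument runs. The first held the 12 lanes up to D3, the second the 6 later embryo lanes and the third the testes. D4 and D5 each have 1 lane with a replicate number and 2 without, called a and b here in no order. D4 lane a and D5 lanes a and b share a tag in their names that the labels do not explain. The mean level of the tested targets was between 6.50 and 7.91 (log2) in D2.5 replicate 3, D3 replicate 3, D4 lane a and D5 lanes a and b, and between 2.62 and 5.79 in the other 13 embryo lanes. Of 6 germ cell probes (3 of SYCP1, HFM1, Piwi-1 and Piwi-2), 5 were above background in all 3 testes lanes; Piwi-2, at 98 to 116 counts, lay under a background of at least 127. Their summed counts were 12061 to 12671 in testes and 38 to 442 in embryos (87 to 442 at D1, 38 to 321 at D3 and 82 to 180 at D5), and none was at 0. The sum hides the SYCP1 probe comp292635_9, with 174 to 198 counts in testes and 8 to 294 in embryos. It was above background in 16 of the 18 embryo lanes, and each of the others in 2 to 12. The part of these 6 probes in the results below was not tested.

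MAD2L1-binding protein RNA was measurable from the first day on and its stage means stayed within 2.41-fold of each other. A probe is called measurable in a lane if its count exceeds the mean + 2 SD of the lane's 8 negative controls, the background. Scaled counts are counts divided by the lane's factor, the geometric mean of the reference probes EF1A_A and HCFC-1. The probe was above background in 17 of 18 embryo lanes; the exception was D1 replicate 2, with 12 counts against a background of 17.9. Scaled counts at D1 were 64.7, 25.6 and 75.8 in replicates 1, 2 and 3. At D2 they were 75.2, 101 and 52.9, and at D2.5 92.0, 70.2 and 135. These stages overlap throughout. At D3 the lanes had 62.4, 82.2 and 257, and at D4 58.2 (replicate 1), 111 (lane a) and 77.5 (lane b). At D5 they had 146 (replicate 1), 143 (lane a) and 111 (lane b), all above the 3 D1 lanes. Scaled by HCFC-1 alone the D5 lanes had 103, 184 and 146, and the lowest of them was under the highest D1 lane of 105. D3 replicate 3 stands alone at the top, and D5 replicate 1 has the next highest value. The stage means, in rising order, were 55.4 ± 26.4 at D1, 76.5 ± 24.2 at D2, 82.2 ± 26.6 at D4, 99.1 ± 33.0 at D2.5, 133.7 ± 19.4 at D5 and 133.7 ± 107 at D3 (SD, n = 3 each). Lane ranges overlapped between all neighbours in that order, and the step from D2.5 to D5 was the one larger than the bigger SD of its pair.

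Protein phosphatase 1D RNA was near or below background in most lanes of the first days. No D1 lane was above background, at 7, 7 and 12 counts against 13.2 to 17.9. At D2 the scaled counts were 14.7 and 24.8 in replicates 1 and 2, both above background, and 24.04 in replicate 3, below it with 10 counts. At D2.5 they were 15.1, 9.66 (below background) and 64.6. From D3 on every lane was above background, some by little. D3 gave 24.95, 19.6 and 149, and D4 25.5 (replicate 1), 88.2 (lane a) and 30.7 (lane b). D5 gave 14.9 (replicate 1), 45.7 (lane a) and 53.4 (lane b). D5 replicate 1 passed with 20 counts against 19.9, and D3 replicate 1 with 12 against 11.4. One lane set most of the mean at D2.5, D3 and D4: replicate 3, replicate 3 and lane a. The stage means were 11.1 ± 3.44 for D1, 21.2 ± 5.61 for D2, 29.8 ± 30.3 for D2.5, 38.02 ± 20.4 at D5, 48.1 ± 34.8 at D4 and 64.4 ± 73.0 at D3 (SD, n = 3 each). The lane ranges of all neighbours in this order overlapped. Only the step between D1 and D2 exceeded the larger SD of its pair, and the D1 lanes have no measured level.

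The trinucleotide repeat probe was measured in no D1 lane, but in all lanes of D2.5, D3 and D4. Of those 9 lanes D2.5 replicate 2, D3 replicate 1 and D4 replicate 1 passed by little, at 1.47, 1.40 and 1.25 times their background. At D1 it had 4, 2 and 5 counts, under backgrounds of 13.2, 17.9 and 17.8. At D2 the scaled counts were 14.7 and 30.2 in replicates 1 and 2 and 2.40, a single count, in replicate 3. At D2.5 they were 29.4, 15.5 and 96.2. D2 replicate 3 is one of the shallowest lanes, with 589 target counts. At D3 the probe had 33.3, 55.0 and 243, and at D4 26.4 (replicate 1), 153 (lane a) and 61.4 (lane b). At D5 lanes a and b had 133 and 127, whereas replicate 1 had 12.7, below background with 17 counts against 19.9. The D1 backgrounds, scaled, were 15.8, 38.2 and 14.7, so that D3 replicate 1 lay under the highest of them and the other D3 lanes above all 3. The D5 lanes fell into 1 low and 2 high values. The stage means were 4.395 ± 0.35 for D1, 15.8 ± 13.9 for D2, 47.0 ± 43.2 for D2.5, 80.2 ± 65.3 at D4, 91.0 ± 67.9 at D5 and 110 ± 115 at D3 (SD, n = 3 each). The lane ranges of each pair of neighbours in this order overlapped.

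**Figure D1:**
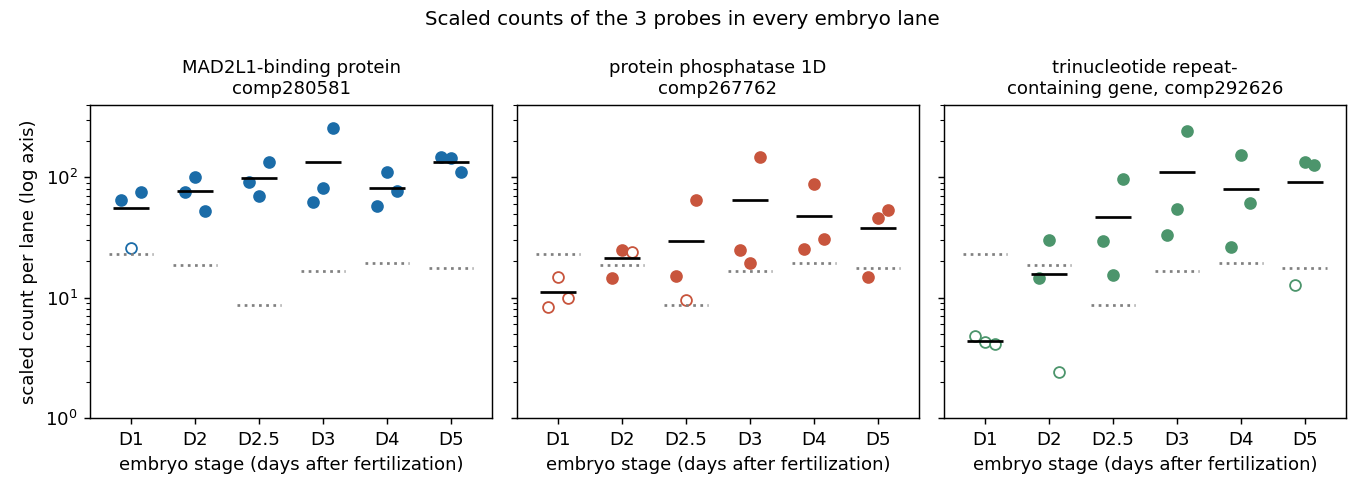
Scaled counts (log axis) of the 3 probes in each of the 18 embryo lanes by stage; filled points are above the background of their lane and open points are not, black bars are stage means and dotted grey bars the mean background of the stage. MAD2L1-binding protein is filled in 17 lanes, with a D1 mean of 55.4 and a D3 mean of 133.7, whereas the trinucleotide repeat probe is open in all 3 D1 lanes and filled in all 3 lanes of D2.5, D3 and D4.

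Across the 6 stages, the trinucleotide repeat probe passed the test, a call that many other settings ended, and the other 2 did not pass. Its adjusted p was 0.0177 in edgeR's quasi-likelihood test, with Benjamini-Hochberg adjustment over the 38 tested targets, of which 52.6% passed. The values for protein phosphatase 1D and MAD2L1-binding protein were 0.537 and 0.929 in edgeR. The call for comp292626 rested on all 3 D1 lanes: leaving out replicate 1, 2 or 3 of D1 ended it, at edgeR adjusted p = 0.0878, 0.0711 and 0.111. The calls of most other targets ended too, since 0, 4 and 0 of the 38 passed in these fits. In the 12 lanes of the first run alone the call for comp292626 held (edgeR adjusted p = 0.0090), and 27 of the 38 targets passed. Among the first-run stages only D2.5 and D3 behaved as pairs by replicate number. With that number as a block over the 14 numbered lanes, 1 each at D4 and D5, the call ended. It also ended with the lane factor from TMM or from DESeq2 (edgeR adjusted p = 0.943 and 0.851) and after subtraction of negative controls (edgeR adjusted p = 0.0609). The same held with reference probes tested too (edgeR adjusted p = 0.0540) and without the 3 lanes lowest in EF1A_A (edgeR adjusted p = 0.128). In limma on scaled counts it ended as well (adjusted p = 0.0510). In these fits, in that order, 6, 9, 0, 5 (of 41), 0 and 8 of the tested targets passed.

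Within the first run, the trinucleotide repeat probe rose from D1 to D3. Its D3 mean of 110 scaled counts was at least 4.83-fold above the D1 background of 22.9, and 3 of 3 D3 lanes were above that mean background. Without D3 replicate 3 this bound was 1.93-fold, and without D1 replicate 2, the lane of highest scaled background, it was 7.25-fold. The fitted log2 fold change was 4.61 (SE 1.35, edgeR adjusted p = 0.0017). At the same threshold 78.9% of the tested targets passed and 76.3% rose, and the median log2 fold change of all 38 was 4.36. Only 6, 3 and 7 of the 43 targets were above background in D1 replicates 1, 2 and 3, so that fitted changes from D1, this median included, rest largely on counts below background, and no rank among targets is read from them. Without D3 replicate 3, the lane of highest target signal, the log2 fold change was 3.30 (edgeR adjusted p = 0.0199). In the first run alone it was 4.62 (edgeR adjusted p = 0.0024). The call ended with the lane factors of TMM and DESeq2, given with the other probes below.

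Protein phosphatase 1D and MAD2L1-binding protein did not pass between D1 and D3, with the lane factor of EF1A_A and HCFC-1. The log2 fold change of protein phosphatase 1D was 2.54 (SE 1.34, edgeR adjusted p = 0.0705), and its D3 mean was at least 2.81-fold above the D1 background. Both rest on D3 replicate 3, without which the D3 mean of 22.3 was not above that background and the log2 fold change was 1.01 (edgeR adjusted p = 0.510). Without D1 replicate 2 the bound was 4.23-fold, and with the replicate block the log2 fold change was 1.95 (edgeR adjusted p = 0.271). The log2 fold change of MAD2L1-binding protein was 1.27 (SE 1.14, edgeR adjusted p = 0.299), from means of 55.4 to 133.7 scaled counts. Whether their changes differ from that of the trinucleotide repeat probe was not tested. Protein phosphatase 1D passed as a rise in edgeR with positive controls as the factor (2.90, adjusted p = 0.0433), with the negative control mean subtracted (3.96, adjusted p = 0.0395), with reference probes tested as well (2.54, adjusted p = 0.0361) and without D3 replicate 2 (2.98, adjusted p = 0.0424). It also passed in DESeq2 (2.56, adjusted p = 0.0111) and in limma on the deposited signal values (2.39, adjusted p = 0.0397). In each of these settings 27 to 31 of all tested targets passed as rises.

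The direction for these 2 probes turned with the lane factor. With TMM the log2 fold changes from D1 to D3 were −2.12 for protein phosphatase 1D (edgeR adjusted p = 0.0141) and −3.04 for MAD2L1-binding protein (edgeR adjusted p = 0.0244), both past the threshold as falls. With the size factors of DESeq2 the fits gave −2.03 and −3.08 (edgeR adjusted p = 0.0109 and 0.0188). Of the 38 tested targets, 14 passed as falls with either factor. Both factors come from the tested targets themselves and place the panel median at −0.17 and −0.048. On these scales the trinucleotide repeat probe was at 0.16 and 0.20 (edgeR adjusted p = 0.842 and 0.772). A fall of protein phosphatase 1D from D1 cannot be read from its counts, which were below background in every D1 lane. Of all 43 targets, 6, 3 and 7 were above background in D1 replicates 1, 2 and 3. Most of the 38 tested targets that these factors draw on were thus below background there. The fall of MAD2L1-binding protein on these scales is therefore not read as a change of its level either.

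**Figure D2:**
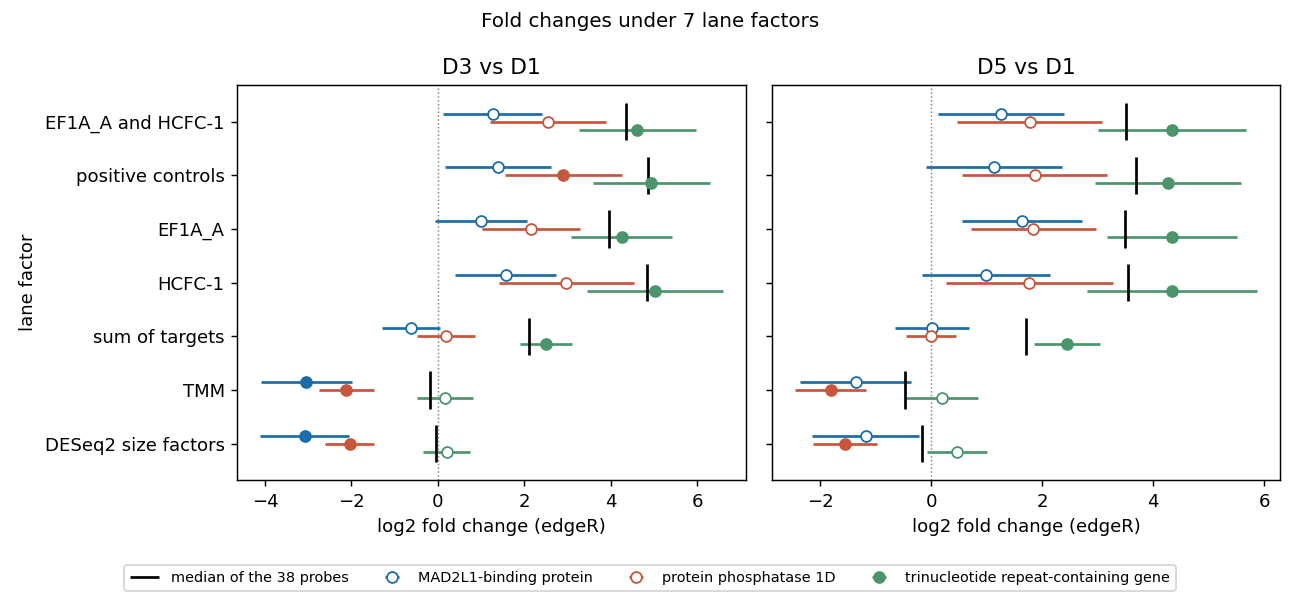
Log2 fold changes (edgeR, bars are the SE) of the 3 probes from D1 to D3 and from D1 to D5 under 7 lane factors; filled points have an adjusted p under 0.05 and black lines mark the median of the 38 tested targets. Most targets were below background at D1, so the fits and the median include counts that are no measured level. From D1 to D3 MAD2L1-binding protein goes from 1.27 with EF1A_A and HCFC-1 to −3.04 with TMM, and the trinucleotide repeat probe from 4.61 to 0.16.

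From D1 to D5, stages read in different runs, the trinucleotide repeat probe passed. Its D5 mean of 91.0 scaled counts was at least 3.98-fold above the D1 background, with a fitted log2 fold change of 4.33 (SE 1.33, edgeR adjusted p = 0.0047). Of the tested targets 65.8% passed and 63.2% rose, and the panel median was 3.50. It was above the D1 background in 2 of 3 D5 lanes, a and b. Without D1 replicate 2 the bound was 5.97-fold, and without D5 lane a it was 3.05-fold. In the 14 embryo lanes with a replicate number, where D5 is replicate 1 alone and its spread is taken from the other stages, the log2 fold change was 1.51 (edgeR adjusted p = 0.802). Scaled by TMM or by the size factors of DESeq2 it was 0.20 or 0.46 (edgeR adjusted p = 0.807 and 0.483). Run and stage cannot be told apart in this comparison.

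MAD2L1-binding protein and protein phosphatase 1D did not pass between D1 and D5. The log2 fold change of the first was 1.26 (SE 1.14, edgeR adjusted p = 0.301), and 1.39 in the numbered lanes (edgeR adjusted p = 0.802). For protein phosphatase 1D it was 1.78 (SE 1.31, edgeR adjusted p = 0.206), with a D5 mean at least 1.66-fold above the D1 background. Without D1 replicate 2 this bound was 2.50-fold, and without D5 lane b it was 1.325-fold. Here too the sign depended on the factor. TMM gave −1.81 for protein phosphatase 1D (edgeR adjusted p = 0.0396) and −1.35 for MAD2L1-binding protein (edgeR adjusted p = 0.271). The size factors of DESeq2 gave −1.55 and −1.18 (edgeR adjusted p = 0.0365 and 0.316). Of the 38 tested targets, 10 passed as falls with either factor. The limits given above for these factors at D1 hold here too. In limma on the deposited signal values protein phosphatase 1D passed as a rise (2.49, adjusted p = 0.0429), one of 20 rises among the 38 tested targets.

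None of the 3 passed between successive stages in edgeR, where 0% of the tested targets did, and none had an unadjusted p under 0.05. The first step, D2 vs D1, gave log2 fold changes of 0.46 (SE 1.13) for MAD2L1-binding protein, 0.94 (SE 1.30) for protein phosphatase 1D and 1.85 (SE 1.24) for the trinucleotide repeat probe. The last of these passed once the mean negative control was taken off (6.64, edgeR adjusted p = 0.0310). In that setting 7 of the 38 tested targets passed, and their median log2 fold change was 4.46. The probe's D1 counts of 4, 2 and 5 lay under the mean negative controls of 4.75, 5.5 and 7.0. They were thus set to 0, so that 6.64 is no measured fold. For D2.5 vs D2 the values were 0.37, 0.50 and 1.54, and for D3 vs D2.5 0.43, 1.11 and 1.23. D4 vs D3, across the runs, gave −0.70, −0.42 and −0.46. D5 vs D4 gave 0.70 for MAD2L1-binding protein, −0.34 for protein phosphatase 1D and 0.18 for the trinucleotide repeat probe.

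For D2.5 and D3 the replicate numbers behaved as pairs. This pairing was read from these same counts and not from the labels, so p-values that use it are descriptions. With the number as a block 2 of the 3 probes passed as rises. The log2 fold changes were 1.20 for the trinucleotide repeat probe (SE 0.28, edgeR adjusted p = 1.18e-04) and 1.04 for protein phosphatase 1D (SE 0.33, edgeR adjusted p = 0.0029). In that fit 92.1% of the tested targets rose. With the sum of the targets as the factor both calls ended (edgeR adjusted p = 0.822 and 0.934), as they did with positive controls only (0.424 and 0.473), with TMM (0.815 and 0.417) and with the size factors of DESeq2 (0.977 and 0.785). MAD2L1-binding protein did not pass (0.26, SE 0.44, edgeR adjusted p = 0.585). Scaled by TMM its paired log2 fold change was −1.42, a fall past the threshold (edgeR adjusted p = 0.0141). The size factors of DESeq2 gave −1.24 (edgeR adjusted p = 0.0173). Of the 38 tested targets, 3 passed as falls with either factor.

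Ratios of 2 probes within a lane do not depend on any lane factor. The efficiency of 2 probes can differ, so only the change of a ratio is read. MAD2L1-binding protein had at least 4.11 and 5.15 times the counts of the trinucleotide repeat probe in D1 replicates 1 and 3, and both were below background in replicate 2. At D2 the ratio was 5.11 and 3.36 in replicates 1 and 2 and at least 1.54 in replicate 3. At D2.5 it was 3.13, 4.54 and 1.40. At D3 it was 1.88, 1.49 and 1.06, so that every D3 ratio lay under both D1 bounds. At D4 the ratio was 2.21 in replicate 1, 0.725 in lane a and 1.26 in lane b. At D5 it was at least 9.86 in replicate 1, 1.07 in lane a and 0.877 in lane b. D5 replicate 1 thus lay on the side of the D1 lanes and the other 2 on that of D3. Because D1 gave bounds and not values, these differences were not tested. Relative to the mean of the tested targets in a lane, MAD2L1-binding protein also went from 2.86 ± 1.02 at D1 to 0.70 ± 0.64 at D3 (log2 difference, SD). How many other targets would show the same ratio change against it was not counted, so the change is not read as particular to this pair.

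The other ratios moved less clearly. MAD2L1-binding protein over protein phosphatase 1D was at least 4.11 and 5.15 in D1 replicates 1 and 3, 2.50, 4.19 and 1.73 at D3, and 9.80, 3.14 and 2.08 at D5. The D3 and D5 lanes reach from under the lower D1 bound to above it. Protein phosphatase 1D over the trinucleotide repeat probe was 1.00 and 0.821 in the 2 measured D2 lanes, and between 0.356 and 0.750 at D3. At D4 it was 0.966 in replicate 1, 0.578 in lane a and 0.500 in lane b. At D5 it was at least 1.01 in replicate 1, 0.343 in lane a and 0.421 in lane b. In D5 replicate 1 protein phosphatase 1D had 20 counts and the trinucleotide repeat probe 17, against a background of 19.9. Both lay at the floor there, so no order of this lane among the others is read. No D1 lane measured either of these 2 probes. In testes the 3 ratios, in the order given, had means of 0.92, 1.31 and −0.39 on the log2 scale with SDs of at most 0.043 over the 3 technical lanes.

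**Figure D3:**
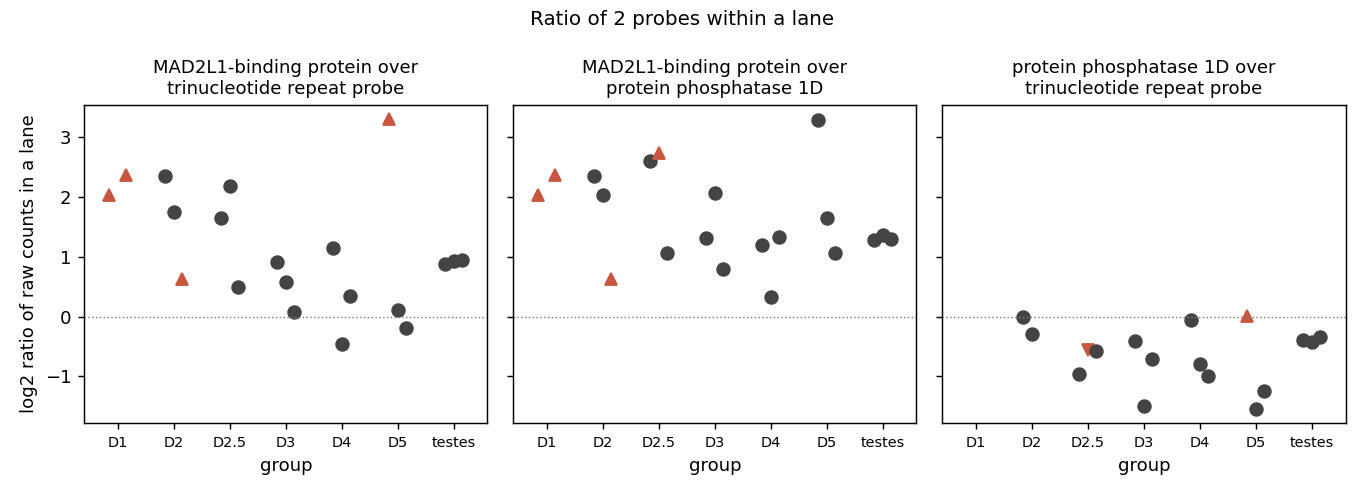
Log2 ratio of the raw counts of 2 probes within each lane, by group; grey points are measured ratios, upward triangles are lower bounds and the downward triangle is an upper bound, where 1 of the 2 probes was below background. MAD2L1-binding protein over the trinucleotide repeat probe is at least 2.04 and 2.37 in 2 D1 lanes and between 0.078 and 0.91 in the 3 D3 lanes. Ratios of MAD2L1-binding protein to targets outside the 3 probes were not computed.

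The 3 probes differed in how closely they followed the rest of the panel from lane to lane. Over the 18 embryo lanes, the Pearson correlation of log2(scaled count + 1) with the mean of the other tested targets was 0.95 for the trinucleotide repeat probe, 0.93 for protein phosphatase 1D and 0.68 for MAD2L1-binding protein. The median over the 38 targets was 0.95, and MAD2L1-binding protein ranked 34 among them. The probes of a lane share its factor. The lanes span the runs and include many values below background, so the correlations here and below are descriptions. The panel mean of a lane includes targets below background, which at D1 were most of them. Relative to it, MAD2L1-binding protein was higher by 2.86 ± 1.02 in D1 embryos, 2.30 ± 0.47 in D2 and 1.86 ± 1.21 in D2.5 embryos (log2 difference, SD, n = 3 each). The difference was 0.70 ± 0.64 in D3, 0.71 ± 1.06 in D4 and 1.56 ± 1.88 in D5 embryos. In the D5 lanes it was 3.72 in replicate 1, 0.64 in lane a and 0.31 in lane b. Protein phosphatase 1D was at −0.67 ± 0.025 in D3, −0.22 ± 0.80 in D4 and −0.40 ± 0.80 in D5 embryos, where every lane measured it. The trinucleotide repeat probe was at 0.45 ± 0.42 in D2.5, 0.18 ± 0.56 in D3 and 0.38 ± 0.31 in D4 embryos.

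By the same correlation, the targets most like the trinucleotide repeat probe were the unannotated comp231524, hydroxylysine kinase (comp293109, an enzyme of amino acid breakdown) and the unannotated comp293924 (r = 0.98, 0.97 and 0.97 over 18 lanes). Its median r with the other 37 targets was 0.90. Protein phosphatase 1D was most like comp286889 and comp3124724, both unannotated, and a baculoviral IAP repeat-containing protein 1 probe (comp285297), with r = 0.95, 0.94 and 0.94. MAD2L1-binding protein was most like the unannotated comp292315, the trinucleotide repeat probe and the other baculoviral IAP probe (comp285297_12), with r = 0.72, 0.72 and 0.71. After the panel mean of each lane was subtracted, it was most like aspartate aminotransferase (comp293586, which moves amino groups between amino acids and keto acids), at r = 0.96. Next came the SYCP1 probe comp292635_9 (a synaptonemal complex protein, which joins paired chromosomes in meiosis) and protein phosphatase 1D, at 0.76 and 0.75. On that scale protein phosphatase 1D was most like comp279056, aspartate aminotransferase and protocadherin FAT3 (comp284391), at 0.85, 0.79 and 0.79. The trinucleotide repeat probe was most like comp293924, comp293109 and comp292315, at 0.72, 0.71 and 0.66. Among the 3 themselves, r on the scaled counts was 0.83 between protein phosphatase 1D and the trinucleotide repeat probe, 0.72 between the latter and MAD2L1-binding protein, and 0.63 for the remaining pair. Relative to the panel these became −0.54, −0.15 and 0.75, so that the sign turned for both pairs with the trinucleotide repeat probe. The median r with the other targets also turned negative after the subtraction. It went from 0.90 to −0.15 for the trinucleotide repeat probe, from 0.89 to −0.21 for protein phosphatase 1D and from 0.63 to −0.28 for MAD2L1-binding protein. The change of sign is thus not particular to these pairs. The same lane mean is taken from both probes of a pair, which raises r between probes that follow it weakly. The part of this in the high r values relative to the panel was not tested.

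All 3 probes had more raw counts in every testes lane than in any embryo lane, also when scaled by reference probes, but not when scaled by the sum of the targets. MAD2L1-binding protein had 6136, 6062 and 5898 raw counts in the 3 testes lanes, against at most 228 in an embryo lane. Protein phosphatase 1D had 2535, 2365 and 2404, against at most 132. The trinucleotide repeat probe had 3317, 3181 and 3063, against at most 216. The negative controls were higher in testes too, with lane means of 60 to 63.5 counts against 3 to 8.125 in embryos, so no fold is read from raw counts. As multiples of the lane's background, the lowest testes values of the 3 probes were 43.5, 17.7 and 22.6, in the same order. The highest embryo values were 15.7, 7.40 and 12.1. Scaled by HCFC-1, the one reference probe above background in all 21 lanes, the testes means were 12.2-, 9.88- and 7.52-fold above the highest stage mean, D3 in each case. By the rule of at least 4-fold, 93.0% of the 43 targets were higher in testes, with a median of 16.4-fold, and the 3 probes ranked 31, 35 and 39 for this fold. There is no test, since the testes are 1 biological sample, read in a run of their own. HCFC-1 passed by little in testes, with 167, 177 and 172 counts against backgrounds of 134, 127 and 136. The folds scaled by it thus rest on a reference near the floor. With positive controls only they were 29.3, 25.8 and 18.7. EF1A_A had 12 to 22 counts in testes and 124 to 863 in embryos, so folds that use it are far larger.

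As a share of the target counts of a lane, the probes were lower in testes than in most embryo lanes. How many of the 43 targets had a lower share in testes was not counted, so this is not read as particular to these probes. MAD2L1-binding protein took 1.29% to 1.31% of the target counts in testes and 1.16% to 6.18% in embryos, above the testes range in 17 of 18 lanes. The highest share was that of D5 replicate 1, 6.18% (Wilson 95% interval 5.39% to 7.07%, for counting error only). One of these 17, D1 replicate 2, was below background. Protein phosphatase 1D took 0.512% to 0.535% in testes and 0.618% to 1.58% in the 13 embryo lanes that measured it, all above the testes range. Over all 18 embryo lanes it was above that range in 16 and under it in 2. These were D1 replicates 1 and 3, at 0.418% and 0.503%, both below background. The trinucleotide repeat probe took 0.679% to 0.700% in testes and 0.784% to 1.86% in the 13 embryo lanes that measured it, again all above. In the other 5 lanes, those of D1, D2 replicate 3 and D5 replicate 1, its counts were below background and their share lay under that of testes. Lanes that measured a probe were picked by its count, and in some shallow lanes the background alone is a larger share than in testes. For these 2 probes the order in the measured lanes is thus partly set by the choice of lanes. By rank of raw count in the lane, MAD2L1-binding protein was between 2 and 19 of the 43 targets in embryos and 17 in testes.

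**Figure D4:**
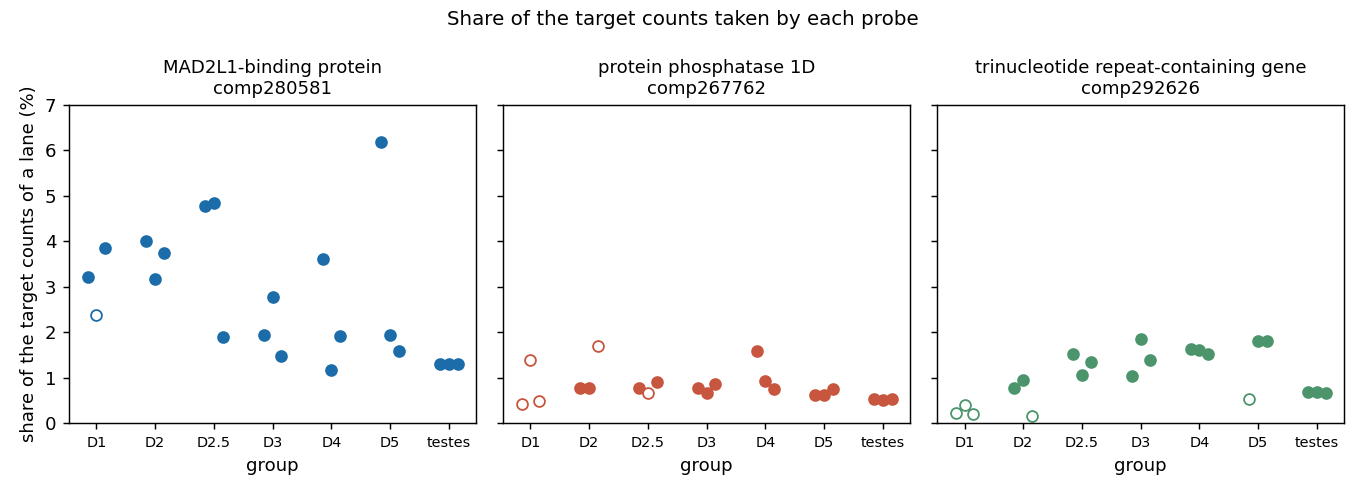
Share of the target counts of a lane (%) taken by each probe in the 18 embryo lanes and 3 testes lanes, with open points below the background of their lane. MAD2L1-binding protein ranges from 1.16% to 6.18% in embryos beside 1.29% to 1.31% in testes, and the trinucleotide repeat probe lies under its testes share of 0.679% in the 5 lanes where it was below background.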

How the data were processed

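Raw nCounter counts were used as deposited, whole numbers of at least 1 per probe and lane, per the file headers. The authors' deposited signal values, whose software is not given in the sources used here, served as an alternative. All 51 such values of the 3 probes were recovered within 2% from the counts by taking off each lane's geometric mean negative control and scaling to EF1A_A plus EF1A_B. Lane factors came from those reference probes that exceeded background in all lanes of a comparison, EF1A_A and HCFC-1 in embryos and HCFC-1 with testes. Targets above background in at least 3 of 18 embryo lanes were tested (38 of 43, all 3 probes among them).

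Counts of the 18 embryo lanes entered the robust quasi-likelihood test of edgeR 4.0.16 in R 4.3.3, by stage, with Benjamini-Hochberg adjustment over the 38 targets and a threshold of 0.05, two-sided; the SE is the log2 fold change over the square root of F. limma 3.58.1 on log2(scaled count + 1) and DESeq2 1.42.0 were alternatives. A fold written as at least is a later mean over the mean D1 background, for a probe below background in every D1 lane; the fits use counts below background as they are, so their fold changes from D1 are no bounds. The edgeR script was first run on simulated data in which only a few targets changed, in D5 alone. Most tested targets passed for D5 vs D1 here, so that run does not show what these fits can miss. Lanes of an embryo stage differed beyond sampling noise (chi-square per degree of freedom at least 2.73) and the testes lanes did not (0.890 to 1.28). Same-numbered lanes were checked as pairs by correlating deviations from the stage means over the 38 targets; among the 6 pairs of first-run stages, this held (all over 0.1) for D2.5 and D3 alone, at 0.173 to 0.794. The pairing comes from the values, not the labels. The text names the 3 probes and, for each, the 3 tested targets of highest correlation on either scale, the other probes of the 3 included. These members and lists were chosen with earlier results of these data known. The probe identifiers matched 0 entries of the RefSeq gene table.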

Additional observations from a re-analysis of the deposited data

How the results depend on the processing

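Over 8 comparisons and the settings tried, 477 of 573 values of the 3 probes kept their direction and side of the threshold, 15 lost the call, 14 gained one and 67 changed sign, most of these in steps where neither value passed; the cause was not tested beyond the construction of a factor. Values below are log2 fold changes in the order MAD2L1-binding protein, protein phosphatase 1D, trinucleotide repeat probe, where all 3 are given. TMM changed the sign for D5 vs D1 (−1.35, −1.81), D3 vs D1 (−3.04, −2.12), D4 vs D3 (0.36, 0.74, 0.15), D2 vs D1 (−1.01, −0.39), D3 vs D2.5 (−1.61, −0.66, −0.42), D2.5 vs D2 (−0.42, −1.06) and, for the last probe, D5 vs D4 (−0.11). DESeq2's size factors did so for D5 vs D1 (−1.18, −1.55), D3 vs D1 (−3.08, −2.03), D4 vs D3 (0.12, 0.54, 0.044), D2 vs D1 (−1.44, −0.77, −0.039), D3 vs D2.5 (−1.46, −0.49, −0.27) and D2.5 vs D2 (−0.17, −0.78). The sum of the targets did so for MAD2L1-binding protein in D3 vs D1 (−0.63), for protein phosphatase 1D in D5 vs D1 (−0.0002) and D2.5 vs D2 (−0.36), for the first 2 probes in D3 vs D2.5 (−0.88, −0.044), D4 vs D3 (0.095, 0.49, 0.14) and the last probe in D5 vs D4 (−0.18). limma on deposited signal values did so for protein phosphatase 1D in D2.5 vs D2 (−0.27), D4 vs D3 (0.077) and D5 vs D4 (0.024), EF1A_A alone for MAD2L1-binding protein in D2.5 vs D2 (−0.0047), and for the trinucleotide repeat probe in D5 vs D4 HCFC-1 alone (−0.052), limma on scaled counts (−0.053) and the 14 numbered lanes (−1.05). Leaving out 1 lane in turn gave, for MAD2L1-binding protein, −0.45 to 0.77 in D3 vs D2.5 and −1.04 to 0.18 in D4 vs D3. For protein phosphatase 1D it gave −0.42 to 2.37 in D3 vs D2.5, −0.76 to 0.91 in D2.5 vs D2, −1.20 to 1.12 in D4 vs D3 and −0.67 to 0.43 in D5 vs D4. For the trinucleotide repeat probe it gave −0.084 to 2.30 in D3 vs D2.5, −1.34 to 0.85 in D4 vs D3, −0.24 to 1.05 in D5 vs D4, 3.30 to 5.04 in D3 vs D1 and 3.95 to 4.85 in D5 vs D1, past the threshold in every fit of the last 2. In D3 vs D2.5 and D4 vs D3 the signs turned without D3 replicate 3, and for protein phosphatase 1D in D2.5 vs D2 without D2.5 replicate 3.

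The number of the 3 probes past the threshold was 1 over the stages. It was 0 with TMM, DESeq2's size factors, the negative control mean subtracted, limma on scaled counts, reference probes tested as well, the replicate block (adjusted p = 0.164 in edgeR) and after dropping the 3 lanes of lowest EF1A_A count, and 0 to 1 leaving out 1 lane. For D5 vs D1 it was 1, against 2 in limma on deposited signal values and 0 in the 14 numbered lanes; with TMM and DESeq2's size factors it was also 1, but protein phosphatase 1D as a fall in place of the trinucleotide repeat probe. For D3 vs D1 it was 1, against 2 with positive controls only, TMM, DESeq2's size factors, the negative control mean subtracted, DESeq2, limma on deposited signal values and reference probes tested as well, and 1 to 2 leaving out 1 lane; with TMM and DESeq2's size factors these 2 are falls, and the trinucleotide repeat probe is not among them. For D2 vs D1 the number of the 3 probes was 0, against 1 with the negative control mean subtracted, where 7 of all 38 targets passed. For D3 vs D2.5 it was 0. With the replicate block it was 2 with EF1A_A and HCFC-1, EF1A_A alone or HCFC-1 alone, and 1 with TMM or DESeq2's size factors. Of all 38 targets 35, 35, 33, 3 and 3 passed in these block fits, in that order. The block gave −0.23 for MAD2L1-binding protein with positive controls only, and −0.79 and −0.040 for it and protein phosphatase 1D with the sum. For the 3 it gave −1.42, −0.63 and −0.48 with TMM and −1.24, −0.43 and −0.29 with DESeq2's size factors. The block with factors other than EF1A_A and HCFC-1, the numbered lanes and the fit after dropping the lanes of lowest EF1A_A count were chosen after seeing the data. The replicate block changed no other call of the 3 probes where it could be fitted; D4 vs D3, D5 vs D4 and D5 vs D1 have too few numbered lanes for it.

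The testes folds over the highest stage mean, in the same order, were 29.3, 25.8 and 18.7 with positive controls only, 993, 1334 and 968 with EF1A_A alone, 74.3, 101 and 72.5 with EF1A_A and EF1A_B, 110, 158 and 109 on the deposited signal values and 0.340, 0.483 and 0.434 with the sum of the targets. That sum is itself set by the targets. Leaving out 1 testes lane gave 11.9 to 12.3, 9.53 to 10.2 and 7.26 to 7.67. The ratios within a lane had bounds at D1, so no difference and no alternative was computed for them. For protein phosphatase 1D and the trinucleotide repeat probe, background sets the smallest level that can be told at D1. The D1 lanes had 1675, 504 and 2384 target counts in replicates 1, 2 and 3. D3 replicate 1, which measured both probes, had 1545. It did so with 12 and 16 counts against a background of 11.4, lower than the 13.2 to 17.9 of the D1 lanes. The part of depth was not tested.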
